A study of Mus musculus with 4 samples.

Results

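Expression in the mouse hepatocyte line AML12 was set side by side 72 h after transfection with *Ulk1* siRNA or with a negative control siRNA, and is described across all genes. Only probe sets with 1 gene symbol were used, and the brightest on average represented its gene. A gene was kept when its higher AML12 value reached the gene median of the array that value came from. Of 22180 genes measured, 11437 met this rule. RNA was measured on 4 arrays, a pair from AML12 cells and a pair from mouse liver. The AML12 pair is labelled with the background strain CD-1, male sex and the genotypes *Ulk1* siRNA and WT. The line was made from mice that carry a transgene for human TGF alpha, and it was grown in medium with serum, insulin, transferrin, selenium and dexamethasone. Both arrays came from non-starved cells given 10 nM siRNA. Each array was taken to hold 1 pool of 4 samples, and a single siRNA to *Ulk1* was used. There was 1 array per condition, so the differences carry no error and no test between the conditions was possible.

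ULK1 is a serine/threonine kinase that starts autophagy, the delivery of cytoplasm to lysosomes. It works in a complex with ATG13, FIP200 (the product of *Rb1cc1*) and ATG101, and it is activated by AMPK and restrained by mTORC1 when nutrients are plentiful. Hepatocytes secrete most plasma proteins and make glucose and lipids, and adult hepatocytes seldom divide, whereas AML12 cells proliferate in culture.

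*Ulk1* had a log2 expression of 7.06 with *Ulk1* siRNA and 7.47 with control, a log2 difference of -0.40, which left 75.6% of the control signal. Its paralog *Ulk2* had 8.54 with *Ulk1* siRNA and 8.38 with control, a difference of 0.16. At the RNA level the array with *Ulk1* siRNA was therefore the lower of the pair for the targeted gene, by a modest amount. The 5th percentile of the differences of all genes past the filter was -0.495, so *Ulk1* did not stand out by size. All differences here are log2 values with *Ulk1* siRNA minus log2 values with control.

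The arrays were alike in scale. The median over the 22180 genes was 4.36 with *Ulk1* siRNA and 4.35 with control, and the Pearson correlation of the arrays across the 11437 genes, which are not independent replicates, was 0.982. The differences had a median of 0.02 and a standard deviation across genes of 0.31, and 67.7% of them were smaller than 0.25 in size. Hepatocyte markers such as *Ttr*, *Alb*, *Apob*, *Krt8*, *Krt18* and *Hnf4a* were well above the gene median, whereas 6 of 21, among them *Tat*, *Tdo2*, *Cyp2e1* and *Cyp3a11*, were below it on both arrays. Markers of other liver cells were mostly below it on both arrays, namely 15 of 20 for stellate cells and fibroblasts, 16 of 18 for macrophages, 14 of 18 for endothelium and 14 of 16 for lymphocytes. The median marker of these 4 lists had a level between 3.21 and 3.86 with *Ulk1* siRNA and between 3.33 and 3.73 with control. Biliary and progenitor markers were more often present, 9 of 14 passing the level filter.

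At least 1 log2 separated the arrays for 179 genes. Of the 11437 genes, 141 were lower with *Ulk1* siRNA by that size (1.23%) and 38 were higher (0.332%). At 1.5-fold, 406 were lower (3.55%) and 257 higher (2.25%), and 47.0% of all genes lay below the control value. The genes that were lower were not confined to dim probe sets. Among the 2859 genes with the highest mean levels, 33 were lower and 5 higher by 1 log2, and among the 2860 with the lowest mean levels, 20 were lower and 12 higher. Of the 141 genes, 14 had a value below the gene median with *Ulk1* siRNA, and of the 38, 8 had a value below it with control. Just inside the threshold were differences of -1.004 and 1.02, and just outside it -0.999 and 0.99. These counts leave out probe sets without a gene symbol, of which 4809 reached the gene median. Among those, more were higher (151) than lower (95) by 1 log2. Cell cycle lists held 74 of the 141 lower genes, or 52.5%, and 2.56% of all genes past the filter, but 0 of the 38 higher genes. Carbon metabolism lists held 13 of the 141, or 9.22% beside 1.99% of all genes past the filter, and lipid metabolism lists 10, or 7.09% beside 1.37%. Of the 38 higher genes, 26 or 68.4% were in none of the 74 lists used, as were 84.2% of all genes past the filter.

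**Figure D1:**
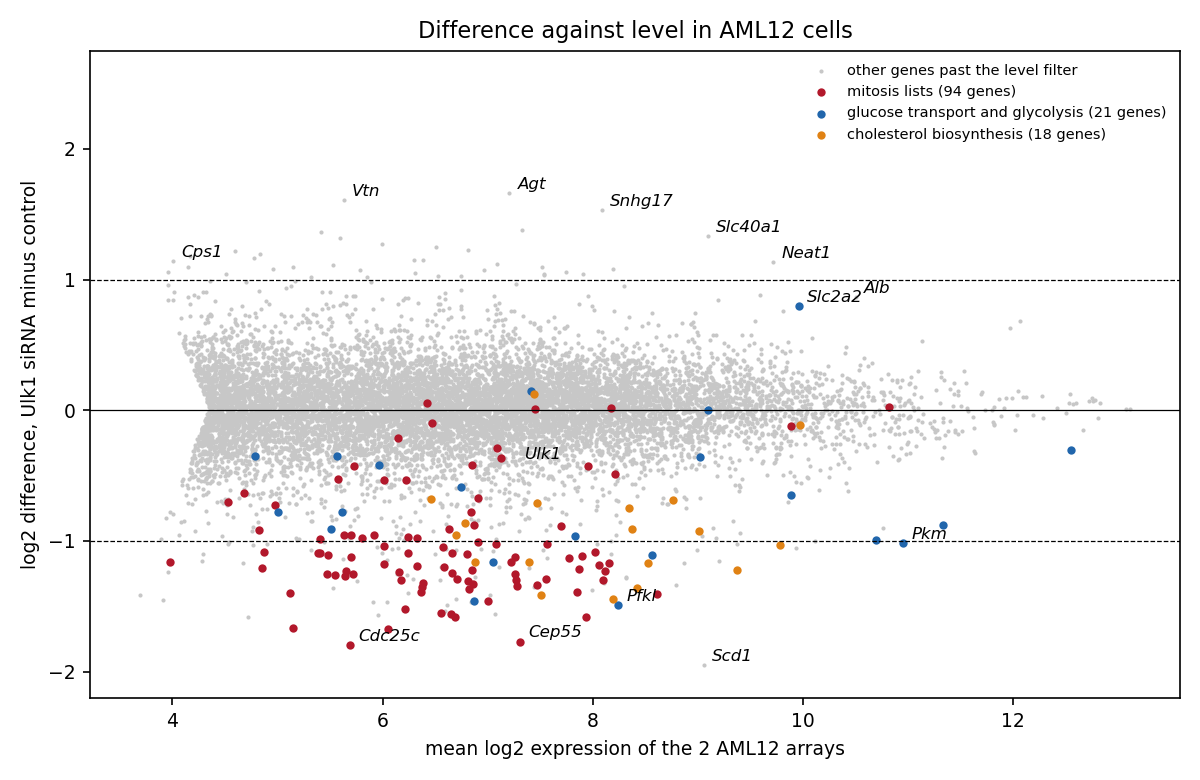
Log2 difference with *Ulk1* siRNA minus control (y axis) against the mean log2 expression of the 2 AML12 arrays (x axis) for the 11437 genes past the level filter, each a point, with mitosis, glycolysis and cholesterol biosynthesis genes coloured and dashed lines at 1 log2 in each direction. Most of the 94 mitosis genes lie around or below the lower line over a wide range of levels, and the highest differences among the named genes are those of *Agt* and *Vtn*.

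Genes of mitosis formed the largest block of lower genes in AML12 cells with *Ulk1* siRNA. Of 96 genes of mitotic entry, the spindle and cytokinesis that were measured, 94 passed the filter, 90 lay below control, and for 62 the gap was at least 1 log2. Their median log2 difference was -1.12, or 46.0% of the control signal, beside 0.02 over all genes. Of all genes past the filter, 47.0% lay below control, 1.23% were lower by 1 log2 and 2.25% were higher by 1.5-fold. None of the 94 mitosis genes was higher by 1.5-fold. In a pool, fewer dividing cells and less of these RNAs per cell cannot be told apart.

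Mitotic entry is driven by CDK1 with its cyclins, switched on by CDC25 phosphatases and by the Polo and Aurora kinases. Of 23 such genes, 22 lay below control, 17 of them by 1 log2 or more, and the median was -1.17. *Cdc25c*, which encodes the phosphatase that removes inhibitory phosphates from CDK1, had 4.80 with *Ulk1* siRNA and 6.59 with control, a difference of -1.80. *Cdkn3*, a CDK-associated phosphatase, had 5.21 with *Ulk1* siRNA and 6.89 with control, a difference of -1.68. *Ccnb2*, a B-type cyclin and the partner of CDK1, had 7.15 with *Ulk1* siRNA and 8.73 with control, a difference of -1.58. The kinase genes of the list were lower by similar amounts. *Cdk1* itself differed by -1.30, *Plk1* by -1.39, *Aurka* by -1.33 and *Aurkb* by -1.25. The checkpoint kinase *Bub1* differed by -1.39, and *Foxm1*, which encodes a transcription factor of late cell cycle genes, by -1.09. *Wee1*, whose product holds CDK1 inactive, was the member above its control value, with 6.45 with *Ulk1* siRNA and 6.40 with control and a difference of 0.05.

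Spindle, kinetochore and chromosome condensation genes had a median of -1.10 over 56 genes, 35 of which were lower by at least 1 log2 and 46 by 1.5-fold. The kinesins, motors that move along microtubules, were lower throughout. The 11 kinesin genes had differences between -1.55 for *Kif2c*, a microtubule depolymerase, and -0.95 for *Kif15*, a spindle motor. *Hmmr*, a spindle assembly factor, had 5.88 with *Ulk1* siRNA and 7.43 with control, a difference of -1.56. *Aspm*, which acts at spindle poles, had 5.45 with *Ulk1* siRNA and 6.97 with control, a difference of -1.52. Centromere proteins spread more widely, 7 of 12 being lower by 1 log2, and ran between -1.46 for the kinetochore motor *Cenpe* and -0.21 for *Cenpt*. The 4 genes of the NDC80 complex, which ties kinetochores to microtubules, split into *Ndc80* at -1.29 and *Nuf2* at -1.16 against *Spc25* at -0.54 and *Spc24* at -0.53. Among 7 condensin subunits, which compact chromosomes, *Ncapd2* of condensin I was lowest at -1.31, and *Ncaph* of the same complex had -0.78. In condensin II, *Ncapg2* had -1.11, *Ncaph2* -0.43 and *Ncapd3* -0.37. *Bub3* and *Zwint*, with -0.12 and 0.01, were near their control values.

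Cytokinesis genes, whose products build the contractile ring and the midbody between daughter cells, had the lowest median of the cell cycle lists, -1.22 over 18 genes, 13 of them lower by at least 1 log2. *Cep55*, a scaffold of the midbody, had 6.42 with *Ulk1* siRNA and 8.19 with control, a difference of -1.77 and the third lowest of the named genes. *Arhgap19* differed by -1.67, with a value of 4.31 with *Ulk1* siRNA that was below the gene median. *Ect2*, the exchange factor that activates RhoA at the cleavage site, had 7.90 with *Ulk1* siRNA and 9.31 with control, a difference of -1.41. *Rhoa* and *Septin9*, which also act outside division, had differences of 0.02 and 0.01.

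The ubiquitin ligase that ends mitosis, the anaphase-promoting complex, split by the role of its parts. Its 12 core subunits had a median of 0.00 and ran between -0.21 and 0.14, 6 of them below the control value. The conjugating enzyme *Ube2c* had 6.29 with *Ulk1* siRNA and 7.85 with control, a difference of -1.56. The activator *Cdc20* differed by -1.31 and the inhibitor *Fbxo5* by -0.99. The other activator, *Fzr1*, which acts in G1, differed by -0.17.

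Further division genes outside the lists were among the 141, named here after their values were seen. *Mki67*, which encodes the proliferation antigen Ki-67, had 8.62 with *Ulk1* siRNA and 9.78 with control, a difference of -1.16. *Plk4*, the kinase that starts centriole duplication, differed by -1.06, *Tacc3*, a spindle protein, by -1.20, and *Kntc1*, a kinetochore protein, by -1.46.

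Replication genes were lower by less. The 58 genes of origins and forks past the filter had a median of -0.37, or 77.6% of the control signal, with 53 below the control value and 3 lower by at least 1 log2. Those 3 were *Top2a*, a topoisomerase that also acts in mitosis, at -1.37, *Asf1b*, a histone chaperone, at -1.05, and *Ticrr*, which helps origins fire, at -1.01. Without *Top2a* the median was -0.36. Of all genes past the filter, 47.0% lay below control and 1.23% were lower by 1 log2.

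Within origin licensing and firing, the complexes differed in level. The 5 measured subunits of the origin recognition complex past the filter, which mark origins all through the cycle, had a median of -0.03 and ran between -0.13 and 0.20. The 6 genes of the MCM helicase, which is loaded at those origins, were all below the control value, with a median of -0.48. *Mcm4* was lowest, with 6.87 with *Ulk1* siRNA and 7.55 with control, and *Mcm2* differed by -0.20. Firing factors varied widely. *Cdc7*, the kinase that activates the helicase, differed by -0.71 and the helicase cofactor *Cdc45* by -0.67. The 4 genes of the GINS complex, also part of the active helicase, had a median of -0.29 and ran between -0.92 for *Gins1* and -0.03 for *Gins3*.

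**Figure D2:**
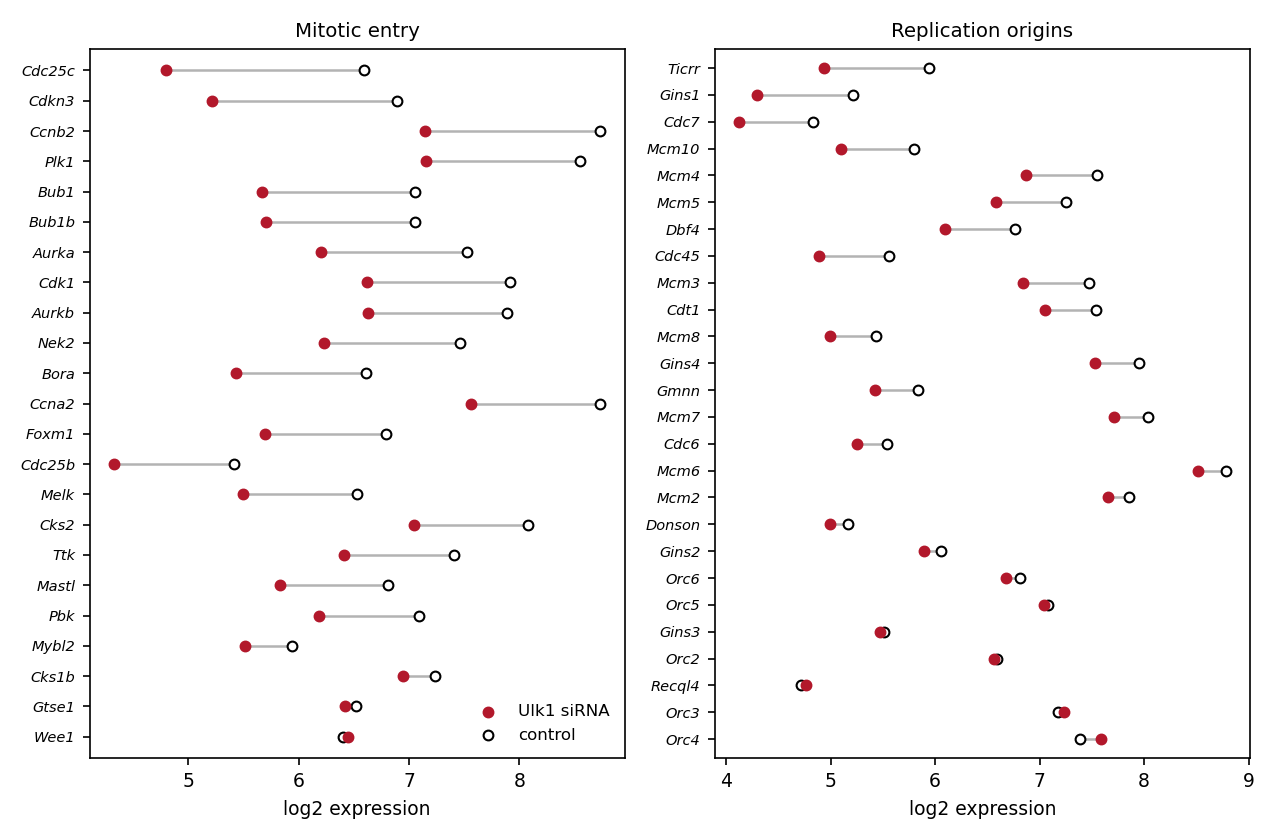
Log2 expression (x axis) with *Ulk1* siRNA (filled) and with control (open) of the 23 mitotic entry genes and the 26 replication origin genes past the filter, ordered with the lowest difference at the top. With *Ulk1* siRNA, 22 of the 23 mitotic entry genes lie to the left of control, and the gaps of the origin genes are smaller, with a median of -0.37 beside -1.17.

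At replication forks, *Uhrf1*, which guides DNA methylation to new DNA, differed by -0.87, the ligase *Lig1* by -0.85, and the polymerase subunit *Pole* by -0.78. *Dna2*, a nuclease, was the highest at 0.19. Nucleotide supply genes had a median of -0.07 over 31 genes. Among them *Rrm2*, the S-phase subunit of ribonucleotide reductase, had the lowest difference at -1.13. *Rrm1*, its partner, differed by -0.57 and the thymidine kinase *Tk1* by -0.72, while the purine synthesis genes *Paics*, *Gmps* and *Gart* had 0.07, 0.08 and 0.27.

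Clustered histone genes, which are transcribed mainly in S phase, had a median of -0.67 over the 15 of 22 measured that passed the filter. All but 1 of these lay below control, 4 by 1 log2 or more, with *H2ac21* lowest at -1.26 and *H4c9* highest at 0.98. Histone genes are near copies of each other, so their probe sets may share signal. Homologous recombination and Fanconi genes, which repair DNA at stalled forks, had a median of -0.24 over 28 genes. *Fancd2*, the central Fanconi protein, had 5.51 with *Ulk1* siRNA and 6.76 with control, a difference of -1.26, and *Rad51ap1* differed by -1.03. *Brca1* differed by -0.17.

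Regulators of the G1 phase did not share this shift. G1 cyclins, E2Fs and pocket proteins had a median of 0.04 over 29 genes, 13 of them below the control value. The D-type cyclins, which carry growth signals to CDK4 and CDK6, differed among themselves, *Ccnd1* having 9.85 with *Ulk1* siRNA and 10.46 with control, a difference of -0.61, and *Ccnd2* having 9.39 with *Ulk1* siRNA and 8.85 with control, a difference of 0.54. *E2f8*, a repressor of E2F genes, differed by -0.81 and *E2f1* by -0.30. CDK inhibitors and growth arrest genes had a median of -0.09 over 20 genes. *Cdkn1a*, which encodes p21, had 10.02 with *Ulk1* siRNA and 9.57 with control, a difference of 0.45, and *Btg2* differed by 0.48, whereas *Cdkn2d* and *Cdkn2b* had -0.58 and -0.44.

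Promoter sequences were read for list members because the mitosis genes were lower together. Late cell cycle promoters are known to carry the CHR element TTTGAA, bound by the DREAM and MuvB complexes, and CCAAT boxes, bound by NF-Y. RefSeq promoters of GRCm38.p6 run 250 bases before to 50 after each start, and motifs were searched on both strands. TTTGAA and CCAAT were both present in promoters of 8 of 16 mitotic entry genes with a promoter in the table and of 22 of 49 spindle genes (44.9%). They were both present in 5.73% of genes past the filter and in 7.97% of all 27025 genes with a promoter. E2F sites, taken as TTTGGCGC, TTTCCCGC, TTTCGCGC or TTTGCCGC, were found for 9 of 20 licensing genes (45.0%) and 10 of 27 fork genes (37.0%), beside 1 of 16 mitotic entry genes, 6 of 49 spindle genes (12.2%), 4.84% of genes past the filter and 2.61% of all genes with a promoter. A match is a description of the letters in this window and shows no binding.

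The 120 bases before the start are shown for the 4 lowest genes of mitosis or mitotic exit that had both elements there. Promoters on a chromosome held out of this choice were not considered. In capitals are TTTGAA or its reverse complement TTCAAA, and CCAAT or its reverse complement ATTGG. They lie at chr14:46760421-46760540 on the plus strand (*Cdkn3*), chr19:41802085-41802204 on the minus strand (*Arhgap19*), chr2:164769809-164769928 on the plus strand (*Ube2c*) and chr3:27153879-27153998 on the minus strand (*Ect2*).
*Cdkn3*: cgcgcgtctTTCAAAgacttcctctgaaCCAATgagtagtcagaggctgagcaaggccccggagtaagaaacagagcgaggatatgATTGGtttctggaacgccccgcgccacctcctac
*Arhgap19*: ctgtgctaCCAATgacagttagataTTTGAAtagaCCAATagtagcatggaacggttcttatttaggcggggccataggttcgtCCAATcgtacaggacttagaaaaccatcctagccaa
*Ube2c*: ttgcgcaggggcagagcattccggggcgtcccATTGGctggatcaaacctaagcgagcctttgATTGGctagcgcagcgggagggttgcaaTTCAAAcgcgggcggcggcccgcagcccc
*Ect2*: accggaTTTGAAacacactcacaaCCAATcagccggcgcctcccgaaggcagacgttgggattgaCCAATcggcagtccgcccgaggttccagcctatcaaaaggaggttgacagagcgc

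Genes of glucose uptake and glycolysis were also mostly lower. Of 25 measured, 21 passed the filter, 18 of these lay below control, 13 by 1.5-fold and 5 by 1 log2. Of all genes past the filter, 47.0% lay below control, 3.55% by 1.5-fold and 1.23% by 1 log2. The 21 genes had a median of -0.78, which corresponds to 58.4% of the control signal.

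At the entry, the glucose transporter *Slc2a1* had 8.01 with *Ulk1* siRNA and 9.12 with control, a difference of -1.11. The liver transporter *Slc2a2* had 10.36 with *Ulk1* siRNA and 9.57 with control, a difference of 0.79, and was thus on the other side of its control value. The hexokinases *Hk2* and *Hk1* differed by -0.91 and -0.42. Phosphofructokinase commits sugar to the pathway, and its 3 genes differed by -1.49 for *Pfkl*, -1.16 for *Pfkp* and -0.59 for *Pfkm*. *Pfkl*, the liver form, had 7.50 with *Ulk1* siRNA and 8.99 with control. *Aldoc*, an aldolase, had 6.14 with *Ulk1* siRNA and 7.60 with control, a difference of -1.46. Some of the most abundant RNAs of the list were those of *Tpi1* and of enzymes of the payoff phase, which yields ATP. *Tpi1* had 10.20 with *Ulk1* siRNA and 11.19 with control, *Pgk1* had 10.89 with *Ulk1* siRNA and 11.77 with control, and *Pkm*, a pyruvate kinase, had 10.44 with *Ulk1* siRNA and 11.46 with control. *Gapdh* differed by -0.30, with 12.39 with *Ulk1* siRNA and 12.70 with control, near the top of the array's range. *Pklr*, the pyruvate kinase of liver, was close to its control value (9.10 with *Ulk1* siRNA and 9.09 with control).

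**Figure D3:**
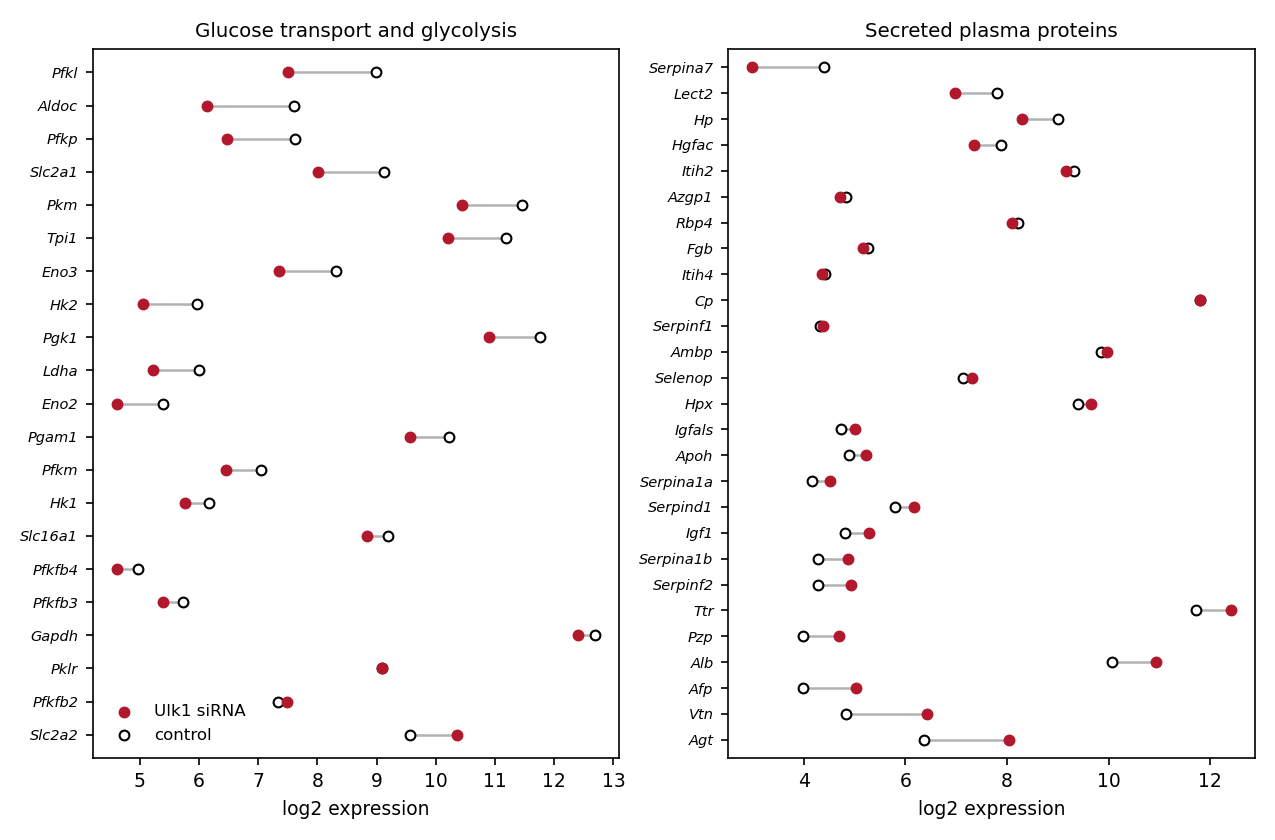
Log2 expression (x axis) with *Ulk1* siRNA (filled) and with control (open) of the 21 glucose transport and glycolysis genes and the 27 secreted plasma protein genes past the filter, ordered with the lowest difference at the top. The glycolysis genes are lower with *Ulk1* siRNA except *Pklr*, *Pfkfb2* and *Slc2a2*, and the plasma proteins spread to both sides, with *Serpina7* and *Agt* at the ends.

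Hypoxia response genes, many of them targets of the HIF transcription factors, which also drive glycolysis, had a median of -0.41 over 37 genes. Below control lay 30, of which 11 differed by 1.5-fold and 7 by 1 log2. Of all genes past the filter, 47.0% lay below control, 3.55% by 1.5-fold and 1.23% by 1 log2. Without the genes shared with the glycolysis list, the median of the other 35 hypoxia genes was -0.42. *Pdk1*, a kinase that acts on pyruvate dehydrogenase, had 5.87 with *Ulk1* siRNA and 7.35 with control, a difference of -1.49. Its dimmer second probe set differed by -0.73. *Bnip3*, a receptor for the autophagy of mitochondria, had 6.77 with *Ulk1* siRNA and 8.12 with control, a difference of -1.35. *Egln3*, an oxygen-sensing prolyl hydroxylase, had 8.12 with *Ulk1* siRNA and 9.45 with control, a difference of -1.33. The collagen-modifying enzymes *Plod2* and *P4ha1* differed by -1.40 and -1.20, and *Vegfa* by -0.56. Some members of the list were at or above their control values. *Hif1a* itself had 7.97 with *Ulk1* siRNA and 7.62 with control, a difference of 0.35, while *Car9*, a classical HIF target, had 0.01 and *Angptl4* 0.15.

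HIF core sites, searched as ACGTG or GCGTG, were found in promoters of 17 of 21 glycolysis genes (81.0%) and 29 of 32 hypoxia genes (90.6%). They were found for 67.5% of genes past the filter and 46.7% of all genes with a promoter, so the motif is common. In the other lists read, the share ran between 53.3% for cholesterol biosynthesis and 80.6% for the integrated stress response. The same 120 bases are shown for the lowest gene of each list with a match there, with the matched letters in capitals, at chr10:78009808-78009927 on the minus strand (*Pfkl*) and chr2:71873104-71873223 on the plus strand (*Pdk1*).
*Pfkl*: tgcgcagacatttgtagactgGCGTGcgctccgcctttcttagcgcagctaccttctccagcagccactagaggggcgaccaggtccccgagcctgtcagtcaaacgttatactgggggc
*Pdk1*: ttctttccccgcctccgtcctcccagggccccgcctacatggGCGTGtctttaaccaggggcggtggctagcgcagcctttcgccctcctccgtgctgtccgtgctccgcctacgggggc

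Downstream of pyruvate the values were close to control. Pyruvate entry and TCA cycle genes had a median of -0.00 over 33 genes, with *Pdk1* the single one lower by 1 log2. Respiratory chain subunits had a median of -0.09 over 61 genes and ran between -0.51 and 0.43. Pentose phosphate genes had a median of -0.05 over 7. In glycogen metabolism, *Gbe1*, the branching enzyme, had 5.71 with *Ulk1* siRNA and 6.90 with control, a difference of -1.20, and *Gys1*, the muscle-type synthase, differed by -0.47. *Ppargc1a*, a coactivator of gluconeogenic and mitochondrial genes, had 6.98 with *Ulk1* siRNA and 6.28 with control, a difference of 0.70. Several gluconeogenic genes of liver, among them *Pck1* and *G6pc*, did not pass the filter in these cells.

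**Figure D4:**
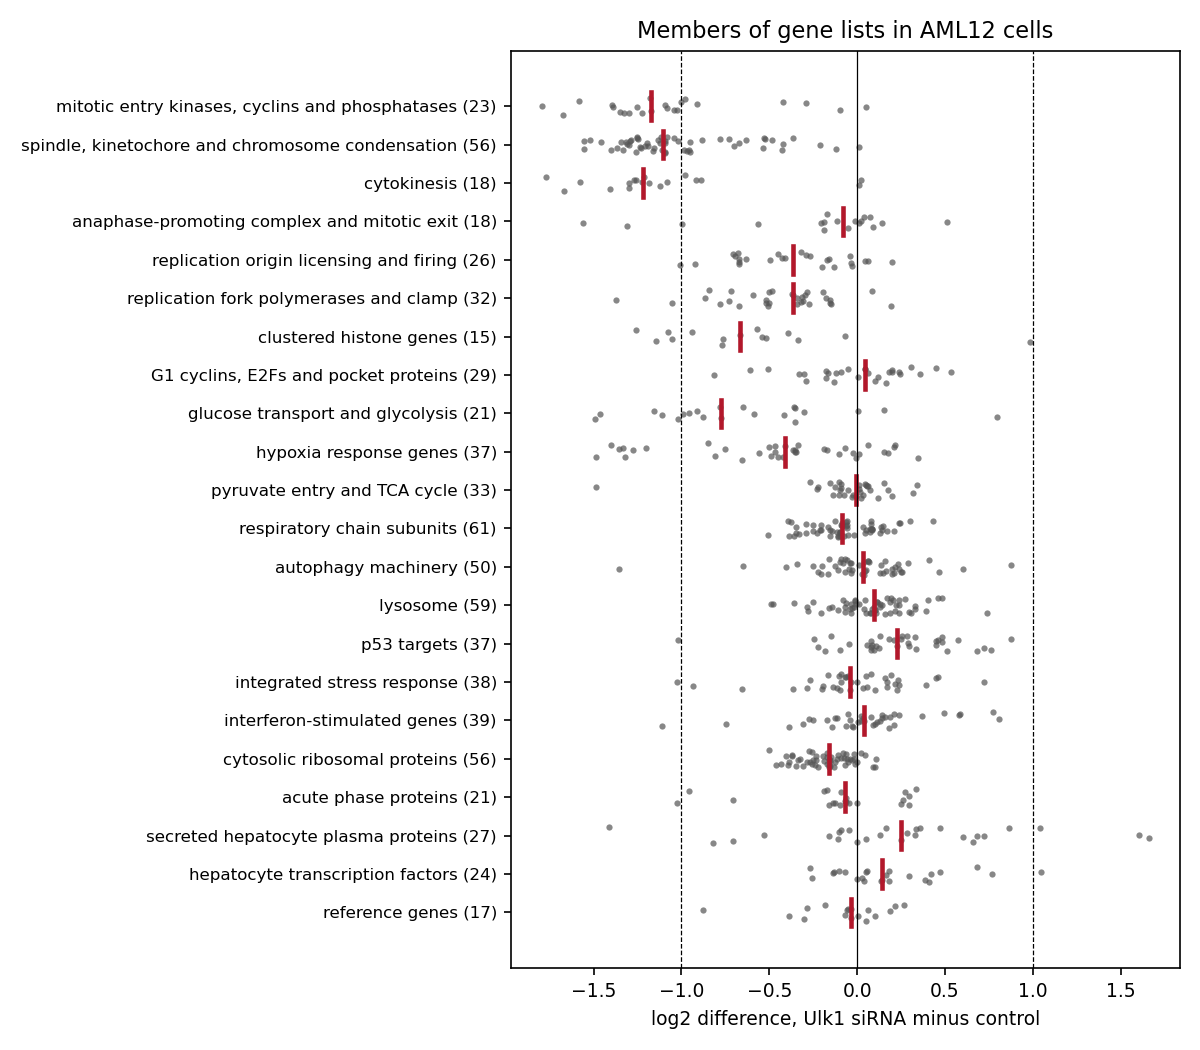
Log2 difference with *Ulk1* siRNA minus control (x axis) of each member past the filter (points) of 22 gene lists, with the number of members in parentheses, the list median as a red bar and dashed lines at 1 log2. The mitosis lists centre near -1.1, glycolysis near -0.78, and the autophagy, lysosome and interferon lists near 0.

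Lipid genes outside sterol synthesis were mixed. Fatty acid synthesis and desaturation had a median of -0.19 over 22 genes, 2 of which, *Scd1* and *Acss2*, were lower by 1 log2. Of the 22, 16 lay below control (72.7%). Of all genes past the filter, 47.0% lay below control and 1.23% were lower by 1 log2. *Acss2*, which makes acetyl-CoA out of acetate, had 4.86 with *Ulk1* siRNA and 5.93 with control, a difference of -1.07. *Scd1*, which introduces the first double bond, had 8.08 with *Ulk1* siRNA and 10.03 with control, the lowest difference of all named genes at -1.95. *Fads2* and *Fads1*, which make polyunsaturated fatty acids, differed by -0.999 and -0.62, and the elongase *Elovl6* differed by -0.67. *Mlxipl*, which encodes the carbohydrate-sensing factor ChREBP, had a difference of 0.55. The 18 genes of cholesterol biosynthesis, for comparison, had a median of -0.94, with 16 lower by 1.5-fold (3.55% of all genes were).

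LXR receptors sense oxysterols and switch on cholesterol export. Of 14 genes of this list, *Abca1*, the exporter of cholesterol to apolipoprotein A1, had 6.26 with *Ulk1* siRNA and 4.94 with control, a difference of 1.32. *Apoe*, *Apoc1* and *Lpl* had 0.69, 0.65 and 0.64. Others lay below control, with *Abcg1* at -0.40, *Srebf1* at -0.33 and *Scd1* far below, and without *Scd1* the median of the other 13 was 0.12. Fatty acid oxidation genes had a median of 0.14 over 32 genes, 21 of them above the control value. Of these genes 34.4% lay below control, beside 47.0% of all genes past the filter. *Acox2*, a peroxisomal oxidase of branched chains and bile acid intermediates, had 8.77 with *Ulk1* siRNA and 7.82 with control, a difference of 0.95, and *Cpt1a*, which brings fatty acids into mitochondria, differed by 0.44.

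The autophagy machinery, of which ULK1 is a part, had a median of 0.03 over 50 genes, close to that of all genes. Below control lay 23 (46%), beside 47.0% of all genes past the filter. Lower by 1 log2 was 1 (2%), beside 1.23% of all genes. The gene lower by 1 log2 was *Bnip3*, which the hypoxia list also holds. Partners of ULK1 stood near or above control, with *Rb1cc1* at 0.41, *Atg101* at 0.21 and *Atg13* at -0.07. *Gabarapl1*, which coats autophagosomes, had 8.39 with *Ulk1* siRNA and 7.79 with control, a difference of 0.60. *Trp53inp1* had 10.03 with *Ulk1* siRNA and 9.15 with control, a difference of 0.88. The protease *Atg4c* was the lowest core gene at -0.65, whereas the receptor *Sqstm1*, the LC3 gene *Map1lc3b* and *Becn1* had 0.06, -0.04 and -0.04.

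Lysosome genes had a median of 0.10 over 59 genes, 37 of them above the control value and 0 differing by 1 log2. Of the list, 37.3% lay below control, beside 47.0% of all genes past the filter. The 14 genes of the vacuolar ATPase, the proton pump, had a median of 0.14, and 12 of them were above control. The cathepsin *Ctsf* had the highest value, with 6.87 with *Ulk1* siRNA and 6.13 with control, a difference of 0.74, followed by *Lipa* and *Smpd1* with 0.48 and 0.46. The sulfatases *Arsb* and *Arsa* were lowest at -0.49 and -0.48. The CLEAR site TCACGTGA, bound by TFEB and its relatives, was found in promoters of 8 of 50 lysosome genes (16%), in 2.26% of genes past the filter and in 1.12% of all genes with a promoter, and *Tfe3* differed by -0.03.

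In nutrient signalling, AMPK and mTOR pathway genes had a median of 0.05 over 42 genes. *Rragd*, a Rag GTPase that recruits mTORC1 to lysosomes, had 4.70 with *Ulk1* siRNA and 3.60 with control, a difference of 1.10, with the control value below the gene median. *Sesn2* and *Sesn3*, inhibitors of mTORC1, had 0.72 and 0.60, and *Ddit4*, a further inhibitor that hypoxia induces, had -0.66. The insulin, AKT and FOXO list had a median of 0.20 over the 29 genes other than *Pdk1*, which was entered there although its product acts on pyruvate dehydrogenase. *Pik3r1*, *Foxo4*, *Igf1* and *Tsc2* had between 0.47 and 0.49.

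Among stress responses, p53 targets lay mostly above control, with a median of 0.23 over 37 genes and 30 of them above it. Of the list, 18.9% lay below control, beside 47.0% of all genes past the filter. After *Trp53inp1* and ahead of *Sesn2*, its highest member was *Eda2r*, a death receptor, with 7.64 with *Ulk1* siRNA and 6.87 with control. *Apaf1*, the apoptosome scaffold, had 7.42 with *Ulk1* siRNA and 6.73 with control. *Mdm2*, the ubiquitin ligase for p53, differed by 0.58. *Ckap2*, which also acts at the spindle, was the lowest at -1.02, and without the members shared with the mitosis lists the median of the other 35 was 0.25.

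The integrated stress response, through which ATF4 raises amino acid supply, had a median of -0.04 over 38 genes. *Slc7a11*, the cystine transporter, had 4.39 with *Ulk1* siRNA and 5.41 with control, a difference of -1.03, and *Psat1*, an enzyme of serine synthesis, had 8.93 with *Ulk1* siRNA and 9.86 with control, a difference of -0.94. *Ddit3* and *Atf5*, also ATF4 targets, had 0.46 and 0.39. The unfolded protein response had a median of -0.04 over 44 genes and heat shock proteins of 0.02 over 35. NRF2 targets had a median of 0.04 over 39, 17 of them below control (43.6%, beside 47.0% of all genes past the filter). Among the 39 were *Osgin1* at 0.71, *Hmox1* at 0.67 and *Slc7a11*, the lowest, at -1.03.

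Interferon-stimulated genes, which double-stranded RNA can induce, had a median of 0.04 over the 39 of 54 measured that passed the filter. *Usp18* and *Ifit3* were the highest at 0.81 and 0.77, and *Isg20* the lowest at -1.11, with 8.02 with *Ulk1* siRNA and 9.13 with control. *Isg15*, *Mx1*, *Oas2* and *Rsad2* were under the filter on both arrays. NF-kB targets, cytokines and chemokines had a median of -0.12 over 35 genes, with *Il33* lowest at -0.83 and *Il1r1* highest at 0.74.

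Several products of hepatocytes were higher with *Ulk1* siRNA. Secreted plasma proteins had a median of 0.25 over 27 genes, 18 of them above control, 8 by 1.5-fold and 3 by 1 log2. Of all genes past the filter, 2.25% were higher by 1.5-fold and 0.332% by 1 log2. Below control lay 33.3% of the list, beside 47.0% of all genes. *Agt*, the angiotensin precursor, had 8.04 with *Ulk1* siRNA and 6.38 with control, a difference of 1.66 or 317% of the control signal. *Vtn*, the adhesion protein vitronectin, had 6.43 with *Ulk1* siRNA and 4.83 with control, a difference of 1.61. *Afp*, the fetal counterpart of albumin, had 5.03 with *Ulk1* siRNA and 3.99 with control, a difference of 1.04, its control value being below the gene median. The abundant *Ttr* and *Alb* were higher as well, *Ttr* with 12.40 with *Ulk1* siRNA and 11.72 with control and *Alb* with 10.94 with *Ulk1* siRNA and 10.07 with control. *Serpina7*, a thyroxine carrier, was lowest at -1.41, with 2.99 with *Ulk1* siRNA, below the gene median, and 4.40 with control. *Lect2* and *Hp* differed by -0.82 and -0.71. When both values had to reach the gene median, 20 genes of the list were left, with a median of 0.15. The counts above thus include genes that passed through 1 array.

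Acute phase proteins, which the liver releases in inflammation, had a median of -0.07 over 21 genes, with *Saa3* at -1.02, *Cd14* at -0.96 and *Lbp* at 0.34. *Cd14* is also a macrophage marker. Complement genes had a median of 0.18 over 14, with *Vtn* highest and *Cfi* at 0.67, and coagulation genes of 0.13 over 17, with *F8* highest at 0.93.

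Hepatocyte transcription factors had a median of 0.14 over 24 genes, 18 of them above control. Below control lay 25% of the list, beside 47.0% of all genes past the filter. *Prox1*, a homeobox factor of liver development, had 8.43 with *Ulk1* siRNA and 7.39 with control, a difference of 1.05. *Onecut2* and *Foxa1* had 0.77 and 0.68, and *Hnf4a*, a central factor of hepatocyte identity, had 0.30. *Cps1*, the entry enzyme of the urea cycle, had 4.58 with *Ulk1* siRNA and 3.44 with control, a difference of 1.14 with the control value below the gene median, whereas *Ass1* and *Asl* of the same cycle had -0.40 and -0.44. Hepatocyte markers had a median of 0.30 over 15 genes, and of 0.04 with no level filter or when both values had to reach the gene median.

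Among carriers and metal handling, *Slc10a2*, a bile acid uptake carrier, had 6.17 with *Ulk1* siRNA and 7.24 with control, a difference of -1.07. *Klb*, the coreceptor through which FGF hormones act on liver, had 8.73 with *Ulk1* siRNA and 7.66 with control, a difference of 1.08. The genes of iron uptake and export lay on opposite sides of control. *Tfrc*, the transferrin receptor that brings iron in, had 7.45 with *Ulk1* siRNA and 8.77 with control, a difference of -1.32, and *Slc40a1*, the exporter ferroportin, had 9.76 with *Ulk1* siRNA and 8.42 with control, a difference of 1.34. *Fth1*, the ferritin heavy chain, differed by -0.15, and the list of 27 genes had a median of -0.03. Phase II conjugation had a median of -0.20 over 24 genes, with *Sult1c2*, a sulfotransferase, lowest at -0.69.

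Ribosomal protein genes differed little but mostly to the same side. Of 56 cytosolic ribosomal protein genes, 51 were below the control value (47.0% of all genes were), with a median of -0.16 and 0 lower by 1.5-fold. Ribosome biogenesis genes had a median of -0.05 over 53, with 32 below control, and the 43 proteasome genes, which degrade protein, of -0.12. Reference genes had a median of -0.04 over 17, and the lowest was *Pgk1*, which is also a glycolysis gene.

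Further higher genes had varied roles. *Hsd17b13*, a lipid droplet protein of hepatocytes, had 7.13 with *Ulk1* siRNA and 5.88 with control, a difference of 1.25. *Corin*, the protease that activates natriuretic peptide, had 7.43 with *Ulk1* siRNA and 6.20 with control, and *Anpep*, an aminopeptidase, had 6.63 with *Ulk1* siRNA and 5.36 with control. The long noncoding RNA *Neat1*, which builds nuclear paraspeckles, had 10.28 with *Ulk1* siRNA and 9.15 with control, a difference of 1.13. *Snhg17* had a difference of 1.53, but its 3 probe sets did not match, with 1.80, 1.53 and -0.29. *Pik3r3*, *Dab2* and *Ceacam1*, an adhesion protein of hepatocytes, had 1.15, 1.15 and 1.09. Further lower genes were *Sprr1a*, a cornified envelope protein, at -1.47, *Adam8*, a metalloprotease, at -1.46, and the potassium channel *Kcnj16* at -1.44.

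Growth signalling and cell structure showed single genes rather than whole lists past 1 log2. TGF beta and BMP genes had a median of 0.21 over 25 genes, with the receptor *Tgfbr1* at 0.84, *Smad3* at 0.63 and *Ltbp1*, which stores latent TGF beta, at -1.30. *Egfr*, the receptor of TGF alpha, had 9.54 with *Ulk1* siRNA and 9.04 with control, a difference of 0.49, and *Tgfa* differed by 0.09. The immediate early genes *Fos* and *Egr1* had 0.98 and 0.92. Keratins of bile duct and gut epithelium were among the lower genes, *Krt20* with 8.46 with *Ulk1* siRNA and 9.53 with control, and *Krt19* with 8.86 with *Ulk1* siRNA and 9.88 with control, while the hepatocyte pair *Krt8* and *Krt18* had -0.17 and -0.28. Epithelial junction and keratin genes had a median of -0.01 over 27. *Krt19* was the lowest of 9 biliary and progenitor markers, 6 of which lay above control, with a median of 0.16 and a mean of -0.03. *Col12a1*, a fibril-associated collagen, had 7.50 with *Ulk1* siRNA and 6.42 with control, and *Itga2*, a collagen receptor, differed by -1.10.

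The other pair of arrays held liver of male mice labelled C57N1/6N and 6 weeks of age. The mice had received 40 µg of *Ulk1* siRNA or negative control siRNA by hydrodynamic tail vein injection each 24 h over 3 days. Strain, delivery and the mix of cells thus differ between cells and liver together with any difference in response, and cannot be told apart. The 15 mitotic entry genes past the filter in both had a median of -1.18 in cells and -0.12 in liver, and the 19 glycolysis genes of -0.78 in cells and -0.05 in liver. Of the 15, 10 lay below control in liver, with *Plk1* at -0.98. Control levels of mitosis genes were lower in liver, *Ccnb2* having 5.50 there and 8.73 in cells, and *Kif2c* 5.15 and 7.33. The gene median of the liver control array was 4.41. How far such levels limit the differences in liver was not tested. For the 18 cholesterol genes the medians were -0.94 in cells and -1.03 in liver. Of the 141 lower genes in cells, 88 passed the filter in liver, where their median difference was -0.16, 59 lay below control (54.2% of all 11602 genes past the filter in liver did) and 10 were lower by 1 log2 (0.655% of all). Apart from *Aurkb*, with -1.25 in cells and -1.45 in liver, these 10 were genes of lipid metabolism. Of the 38 higher genes, 27 passed in liver, 15 of these were above control (45.8% of all in liver) and 0 by 1 log2 (0.509% of all). These differences between cells and liver were not tested.

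**Figure D5:**
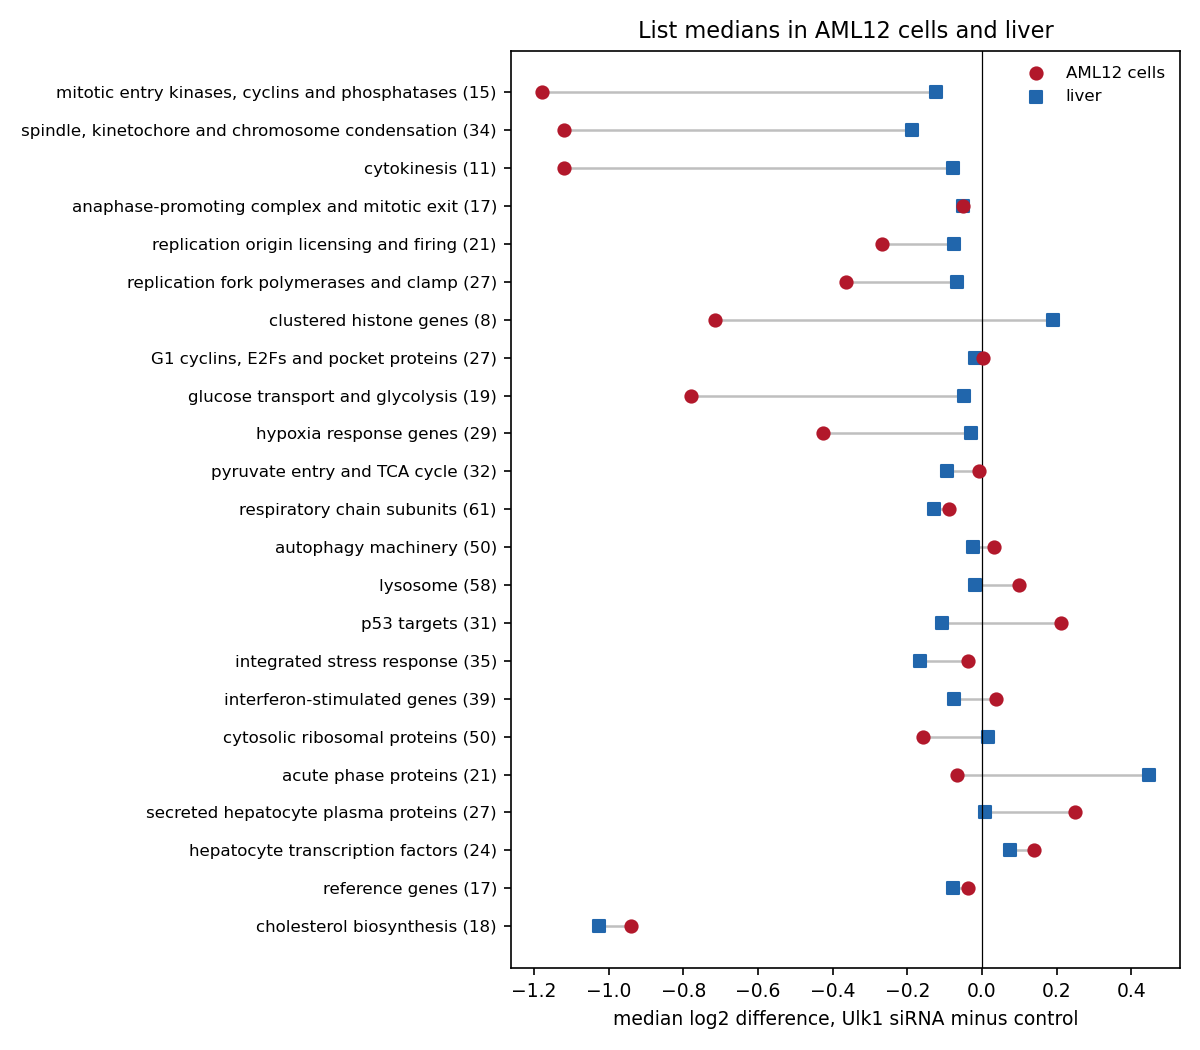
Median log2 difference with *Ulk1* siRNA minus control (x axis) of 23 gene lists in AML12 cells (circles) and in liver (squares), over the genes past the filter in both, whose number is in parentheses. The medians lie far apart for mitosis and glycolysis, with -1.18 in cells and -0.12 in liver for mitotic entry, and close together for cholesterol biosynthesis. Control levels of mitosis genes such as *Ccnb2* were lower in liver (5.50) than in cells (8.73).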

How the data were processed

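RNA of AML12 cells and of mouse liver was hybridised to whole-transcript Affymetrix arrays, 1 for each of 4 conditions. The authors deposited log2 values, made with RMA per the submitters' processing notes, and with quantile normalization in Partek per the methods. No further normalization was applied. Joint normalization of the 4 arrays is not given in the sources used here. All 4 columns were mapped to samples, leaving 0 unmapped. Of 41345 probe sets, 23521 carried 1 gene symbol, 1820 several and 16004 none here.

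The 74 gene lists and the genes described were chosen with earlier results of these data known, so they are not independent of them. Of 2793 list entries, 275 were not analysed here, and 43 were matched through a synonym or gene identifier in the RefSeq table of GRCm38.p6. A list is described by counts and by its median beside the same over all genes. Genes were named out of a set made up of *Ulk1* and *Ulk2*, the 25 largest differences in each direction (leaving out predicted genes, clones, small RNAs and chemoreceptors), up to 5 members at each end of a list with members that cover a pathway step, and genes past 1 log2 in both cells and liver, and not all of that set are described. Some further genes were picked once their values were known. With 1 array per condition the number of arrays limits the precision, and no error or p-value is given. Promoters came from RefSeq (GRCm38.p6). The steps were run on simulated arrays with large differences put into well-expressed genes, which checks the code and not the counts reported here. Alternatives are given in the closing section. Python 3.11.15, numpy 2.4.6, pandas 2.3.3, statsmodels 0.14.6 and matplotlib were used.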

Additional observations from a re-analysis of the deposited data

Results flagged for a closer look

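Genes on opposite sides of control in AML12 cells and liver drew attention. *Afp*, the fetal plasma protein, had a log2 difference of 1.04 in AML12 cells and -1.12 in liver, and *Saa3*, a serum amyloid protein, had -1.02 in AML12 cells and 3.68 in liver. They were singled out because each passed 1 log2 in both, in opposite directions, and the difference between cells and liver was not tested. In AML12 cells *Afp* had 5.03 with *Ulk1* siRNA and 3.99 with control.

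Probe sets outside the gene comparison also differed. Of 4809 probe sets without a gene symbol that reached the gene median on at least 1 AML12 array, 151 were higher and 95 lower with *Ulk1* siRNA at a threshold of 1 log2, with differences between -3.05 and 3.14. Of 868 such probe sets with several symbols, 1 was higher and 7 lower. They carry no single gene name here. Of the 11437 genes with 1 symbol, 0.332% were higher and 1.23% lower by 1 log2. The greater number of lower genes was thus not seen for probe sets without a symbol.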

How the results depend on the processing

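No paired analysis was possible because each condition has 1 array and 1 replicate number, and for the same reason no array could be left out. At 1.5-fold in place of 1 log2, 257 genes were higher and 406 lower in AML12 cells. Under the other 7 alternatives the higher count ran between 30 and 54 and the lower count between 127 and 175. The mean in place of the median gave -1.07 for mitotic entry and -0.65 for glycolysis. With no level filter the median was -0.59 for glycolysis, 0.13 for secreted plasma proteins and 0.041 for hepatocyte markers. With a filter on both arrays it was 0.15 for plasma proteins and 0.041 for hepatocyte markers, so these higher medians rest in part on genes that passed through 1 array. Of 592 alternative list medians, 572 stayed within 0.1 log2, 20 moved further and 0 reversed a median of 0.2 or more in size, which 16 of the 74 lists had. The scalings moved the median of all genes by at most 0.02, and under them 2 lists, phospholipid synthesis and circadian clock, both within 0.02 of 0, turned sign. Further small medians turned sign under other alternatives. Wnt pathway went between 0.06 and -0.03 with no level filter, and biliary markers between 0.16 and -0.03 as a mean. Without the level filter, 46 of the 50 named largest differences remained. The number of arrays limits all values.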

Other observations

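Circadian clock genes had a median of 0.02 over 20 genes, with *Cry2*, a repressor of the clock, highest at 0.88 (6.09 with *Ulk1* siRNA and 5.21 with control) and *Bhlhe40* lowest at -0.50. Nuclear receptors had a median of 0.03 over 30, with *Esrrg* lowest at -0.83. Notch pathway genes had a median of 0.19 over 19, with *Hes5* and *Hey1*, targets of the pathway, at 0.47 and 0.46 and *Rbpj*, its DNA-binding factor, at -0.54. The median of this list was 0.08 with no level filter, with a filter on both arrays, or when probe sets were averaged per gene. Wnt pathway genes had a median of 0.06 over 26, with *Tcf7l2* highest at 0.71. YAP and TEAD targets had a median of 0.11 over 27, with *Nuak2* at 0.82.

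Mitochondrial ribosome genes had a median of -0.09 over 62, with *Mrpl45* lowest at -0.84. Apoptosis regulators had a median of 0.05 over 33, with *Apaf1* at 0.68, *Pmaip1* at 0.48 and *Gsdmd*, which forms pores in pyroptosis, at -0.60. Among microtubule genes *Tuba1b* differed by -0.83 and *Tubb6* by -0.68, and *Tubb5* by -0.18.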
